A study of Mus musculus with 22 samples.

Results

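The genes described here are 10 mediators of JAK-STAT signalling that act downstream of the leptin receptor: the kinases Jak1 and Jak2, the transcription factors Stat3, Stat5a and Stat5b, the feedback inhibitors Socs2, Socs3 and Cish, and the phosphatases Ptpn1 and Ptpn11. They were taken by name, after Ensembl identifiers had been matched to mouse gene symbols. No rule on their values was used, but earlier results of these data were known when they were chosen. All 10 were found among 55416 gene identifiers, and all 10 were among the 17366 genes that passed the low-count filter. RNA was sequenced in bulk from haematopoietic stem cells (HSCs) of mouse bone marrow, separated by whether the leptin receptor protein (LEPR) could be stained on their surface. The 4 groups were LEPR+ and LEPR- HSCs of 4 young mice aged 2 to 3 months (n = 4 libraries each) and LEPR+ and LEPR- HSCs of 7 middle-aged mice aged 12 to 15 months (n = 7 each), and each of the 11 mice gave 1 library of each fraction. The cells of all groups came from femurs and tibiae, were depleted of lineage-positive cells with magnets and were sorted for Sca1, Kit and CD150 on lineage-negative cells that lacked CD48. Strain, genotype and any treatment are not given in the sources used here. The questions the design asks of the genes are whether LEPR+ and LEPR- HSCs differ at each age, and whether either fraction differs between ages.

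Leptin binding brings together leptin receptor chains that carry the kinase JAK2, which then phosphorylates itself and tyrosines of the receptor. STAT3 and STAT5 dock on those tyrosines, are phosphorylated, pair and enter the nucleus, where SOCS3 and CISH are among the genes they induce, and those proteins in turn damp the receptor and its kinase. PTP1B, the product of Ptpn1, removes phosphate from JAK2, and SHP2, the product of Ptpn11, links the receptor to the ERK pathway. The same kinases and STATs serve thrombopoietin, growth hormone and the interleukin-6 family, of which the thrombopoietin receptor is the best known in HSCs. Since the pathway is switched by phosphorylation, levels of messenger RNA measure the supply of its parts and not its activity.

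STAT dimers bind a palindrome written TTCNNNGAA, so the starts of the genes were searched for it on both strands. RefSeq's table of promoters (GRCm38.p6, windows of 300 bases from 250 before to 50 after the annotated start) holds 9 of the 10 genes, and 8.30% of its 32851 windows contain the motif. Among the 9 genes it occurs in Cish and Socs3, both feedback inhibitors. The other feedback inhibitor, Socs2, has no window there and was not searched. The windows of Jak1, Jak2, Stat3, Stat5a, Stat5b, Ptpn1 and Ptpn11 do not have these letters. The stretches around the matches in Cish and Socs3 are shown. Capitals mark the motif, and the positions are those of the same sequence in GRCm39, at chr9:107173848-107173877 on the plus strand for Cish and chr11:117860327-117860356 on the minus strand for Socs3.
Cish: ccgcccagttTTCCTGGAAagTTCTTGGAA
Socs3: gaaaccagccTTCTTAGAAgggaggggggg
In Cish the motif occurs 2 times, beginning at the annotated start and 11 bases after it, as TTCCTGGAA and TTCTTGGAA. In Socs3 it occurs 1 time, 154 bases before the RefSeq start, as TTCTTAGAA. Both stretches lie within an annotated 5′ untranslated exon of at least 1 transcript in GENCODE vM39. A match describes the sequence and shows no binding.

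The libraries held between 10325587 and 61697039 gene counts (10.3 M to 61.7 M, median 32.97 M). Levels are given in CPM, the counts in each 1e+06 counts of a library, scaled by the trimmed mean of M values (TMM). Where a library has a count of 0, the level may by counting error alone still be as high as 3 counts would give. That is 0.0452 to 0.279 CPM depending on depth. The spread between libraries of 1 group was large, with a median biological coefficient of variation of 1.26 over genes. Drop-out was measured as the share of 6764 genes of intermediate level (mean 10 to 100 CPM) that lay under 1 CPM in a library. It was 11.9% to 19.4% in young LEPR+, 19.8% to 31.03% in young LEPR-, 0.177% to 24.4% in middle-aged LEPR+ and 0.177% to 15.4% in middle-aged LEPR- libraries. Mouse 6 gave the highest value of each middle-aged group, 24.4% and 15.4%, and its libraries stood apart in several of the genes below. Summed over 12 HSC genes (Kit, Ly6a, Slamf1, Procr, Mecom and others), the group medians lay between 1587 and 2940 CPM and none of the 12 was at 0 throughout a group. In bulk RNA, fewer cells of a type and less RNA per cell cannot be told apart.

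The receptor's own transcript was near the limit of detection in the young libraries and uneven between the middle-aged ones. Lepr had 1 count in the 4 young LEPR+ libraries and 1 count in the 4 young LEPR- libraries. In middle-aged mice it had 428 counts over 7 LEPR+ libraries, of which mouse 8 held 363, and 254 over 7 LEPR- libraries, of which mouse 7 held 226. The label LEPR+ therefore rests on the sorted protein, and the RNA did not separate the fractions at this depth. Leprot, whose protein regulates receptor traffic, lies before Lepr on the plus strand of chromosome 4 (annotated starts at 101504482 and 101574601, GRCm39). Leprot was at 93.1 to 221 CPM in 21 libraries and at 1.42 CPM in the LEPR- library of young mouse 2.

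Between LEPR+ and LEPR- HSCs no member passed the test at either age. By edgeR's quasi-likelihood test with Benjamini-Hochberg adjustment at 0.05, 0 of the 10 were called in young mice, where 0.599% of all tested genes were called. In middle-aged mice 0 of the 10 and 0% of all genes (152 genes had an unadjusted p under 0.05) were called, and over both ages 0 of the 10 against 0.276% of all genes. A change of the LEPR effect from young to middle age was called for 0 of the 10 and for 0.236% of all genes. No member had an unadjusted p under 0.05 in any of these 4 comparisons without a block, and DESeq2 called none of the members in them either. The median log2 fold change of the members, LEPR+ against LEPR-, was 0.09 in young and 0.14 in middle-aged mice, beside 0 and 0.01 over all genes. Both libraries of a mouse come from the same animal, and with the mouse as a replicate block 0 members were called, while the genes called in young mice fell from 104 to 25, those over both ages from 48 to 12 and those of the difference from 41 to 7. The blocked log2 fold change with the smallest p in young mice was that of Stat3, at 1.09 (SE 0.39, adjusted p = 0.313). With the block, Stat3 was the only member with edgeR unadjusted p-values under 0.05. They were 0.0159 in young mice, 0.0316 over both ages (adjusted p = 0.489) and 0.0499 for the difference (adjusted p = 0.561). The share of all genes with such a p in the blocked fit was not counted.

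**Figure D1:**
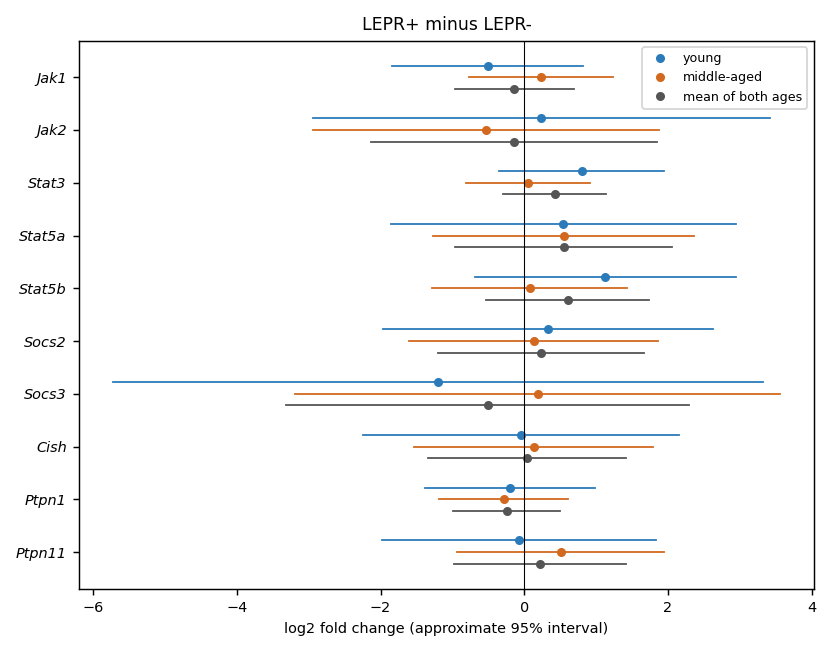
Log2 fold change of LEPR+ against LEPR- HSCs for each gene (x axis) with its approximate 95% interval, in young mice, middle-aged mice and as the mean of both. The intervals are from the fit without a mouse block. Each of them includes 0, both narrow ones such as that of Ptpn1 (-1.19 to 0.61 in middle-aged mice) and wide ones such as that of Socs3 (-5.73 to 3.33 in young mice).

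These intervals are from the fit without a block, which does not use the pairing within mice. They set how much of a LEPR difference that fit leaves room for. In middle-aged mice the approximate 95% interval of the log2 fold change was -0.77 to 1.23 for Jak1, -0.82 to 0.91 for Stat3 and -1.19 to 0.61 for Ptpn1. In young mice it was -1.84 to 0.82 for Jak1 and -0.35 to 1.95 for Stat3. With the block, the log2 fold change of Stat3 in young mice was 1.09 (SE 0.39, edgeR unadjusted p = 0.0159). For Jak2, Socs3 and Stat5a the intervals span more than 3 log2 units at each age. A p that misses the threshold does not show that the fractions are alike.

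Paired values within mice add detail on 3 genes, the members in which 6 of the 7 middle-aged mice went the same way. This choice follows the values themselves, and the share of all genes that split in this way was not counted. For each of the other members, 2 to 5 of the 7 middle-aged mice were higher in LEPR+ cells. Ptpn11 was higher in the LEPR+ library of 6 of the 7 middle-aged mice, by 0.49 ± 0.40 (SD, n = 7) on the log2(CPM + 0.5) scale. Its values there were 51.7, 77.0 and 102 CPM (lowest, median, highest) in LEPR+ and 39.4, 52.6 and 74.4 CPM in LEPR- cells. The groups overlapped, and mouse 11 went the other way. Jak1 was also higher in LEPR+ cells of 6 of 7 middle-aged mice (0.21 ± 0.26, SD, n = 7) but of only 1 of 4 young mice. Ptpn1 was lower in LEPR+ cells of 6 of 7 middle-aged mice (-0.33 ± 0.55, SD, n = 7) and of 3 of 4 young mice. With the block, the edgeR adjusted p of these 3 genes in middle-aged mice was 1 for each, so none was called. The dispersion of that fit is shared with the young libraries, and its SE for Ptpn11 in middle-aged mice was 0.80. It does not measure the spread of the 7 middle-aged pairs alone, and no test of those pairs alone was run.

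**Figure D2:**
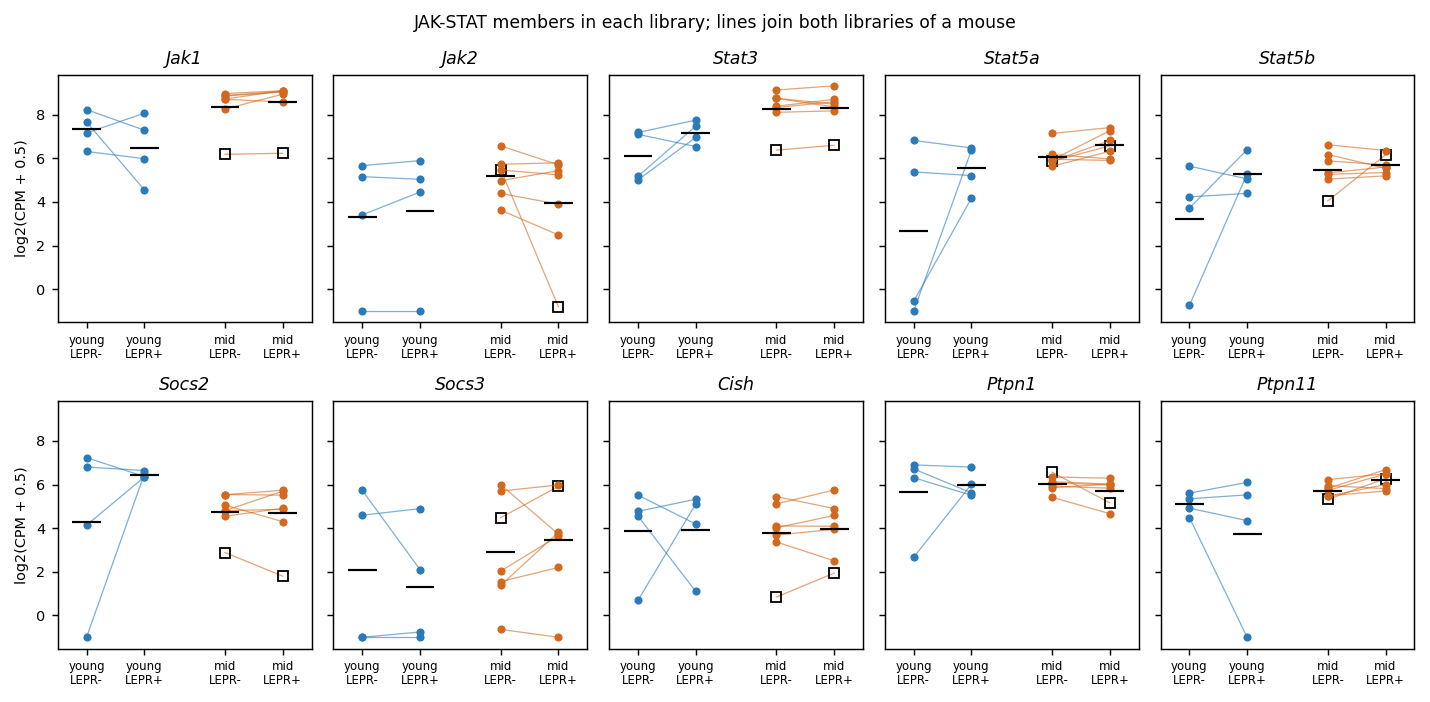
Level of each gene in every library, as log2(CPM + 0.5), in the 4 groups; lines join both libraries of a mouse, bars are group means and open squares mark mouse 6. For Jak1 and Stat3 the 6 middle-aged libraries other than that of mouse 6 lie above all young ones in each fraction, for Socs2 all middle-aged LEPR+ libraries lie below the young ones, and the lines between fractions run both ways. The share of all genes that split in this way without mouse 6 was not counted.

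The member that passed the test did so between ages. Stat3, the main nuclear effector of leptin signalling, was 3.98-fold higher in middle-aged than in young LEPR- HSCs, and it was the 1 member called there, where 3.84% of all genes were called. In LEPR+ HSCs 0 of the 10 were called beside 0.173% of all genes, although Jak1 and Stat3 had unadjusted p-values under 0.05 (2 of the 10, beside 3427 of 17366 genes). DESeq2 called 1 member there, Jak1, and 1881 of all genes. The members' median log2 fold change from young to middle age was 0.59 in LEPR+ and 0.72 in LEPR- cells, with 7 of 10 above 0 in each. Over all genes the median was 0.25 and 0.33, which moved to 0.35 and 0.46 with RLE scaling and to 0.08 and 0.21 with upper-quartile scaling. The age comparison of a fraction uses the same young libraries as its LEPR comparison in young mice.

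**Figure D3:**
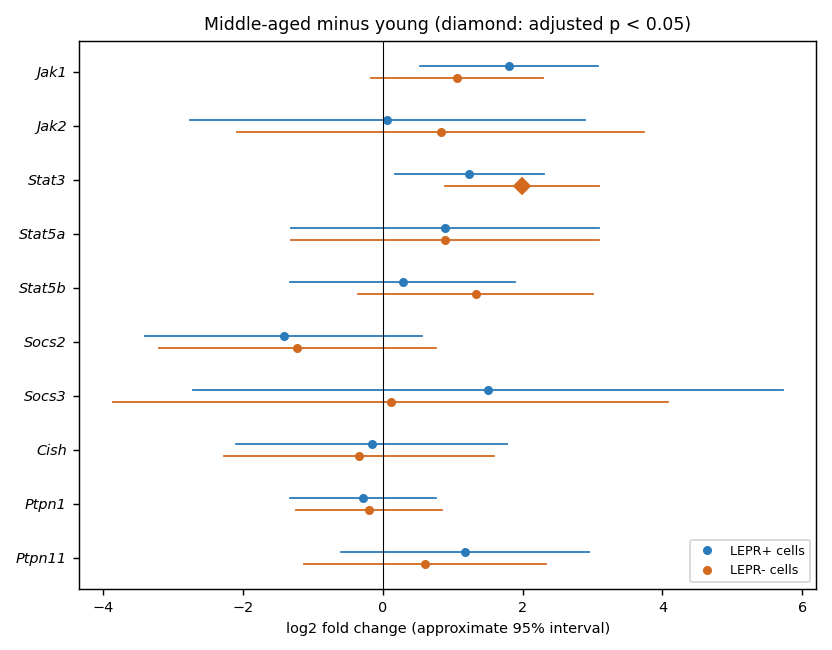
Log2 fold change of middle-aged against young HSCs for each gene (x axis) with its approximate 95% interval, in LEPR+ and LEPR- cells. Stat3 in LEPR- cells (diamond, 1.99) is the only value with an adjusted p under 0.05; the intervals of Jak1 and Stat3 in LEPR+ cells also lie above 0 before adjustment.

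JAK1 pairs with receptors of the interleukin-6 and interferon families, and its transcript (chromosome 4, 101008838 to 101122487, GRCm39, minus strand) was the most abundant of the set per kilobase of merged exon in middle-aged cells. Jak1 stood at 267, 156, 62.7 and 23.02 CPM in the LEPR+ cells of young mice 1 to 4. In middle-aged LEPR+ cells it was at 74.5, 524 and 547 CPM (lowest, median, highest), and the lowest value was that of mouse 6. The other 6 middle-aged LEPR+ libraries lay at 383 CPM or more, above all 4 young ones. This split of mouse 6 from the rest follows the values of Jak1 itself. The share of all genes that show it was not counted, and the same holds for the splits of Jak1 and Stat3 below. With mouse 6 kept, 0 members had all middle-aged libraries above all young ones in either fraction. The shares of all genes that did were 2.06% in LEPR+ and 4.19% in LEPR- cells. Jak1 had a log2 fold change of 1.80 (SE 0.61, edgeR adjusted p = 0.149, Benjamini-Hochberg). Without both libraries of mouse 6 it was 1.99 and was called (edgeR adjusted p = 0.0296, where 3.88% of 17273 genes were called). DESeq2 called Jak1 with all libraries (1.91, adjusted p = 0.0192), in a comparison where DESeq2 called 1881 genes and edgeR 30. With the drop-out share of the library as a covariate the log2 fold change of Jak1 was 1.04 (SE 0.54, edgeR adjusted p = 0.406).

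In LEPR- cells Jak1 was at 142, 299, 79.0 and 202 CPM in young mice 1 to 4, and at 72.0, 419 and 499.7 CPM (lowest, median, highest) in middle-aged mice. Again mouse 6 was the lowest, and the other 6 lay at 305 CPM or more, above all 4 young libraries. Here its log2 fold change was 1.06 (SE 0.58, edgeR adjusted p = 0.245), and with the drop-out share of the library as a covariate it turned to -1.26 (SE 0.93, adjusted p = 0.675). Within sexes the mean log2 difference in LEPR+ cells was 3.24 in females (5 middle-aged, 2 young) and 1.08 in males (2 and 2), and in LEPR- cells 1.33 and 0.79. About 18.0% of the exon bases of Jak1 overlap Raver2 on the opposite strand, so without a stated strand setting some of its reads may have been set aside as ambiguous or given to the neighbour.

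JAK2 is the kinase bound to the leptin, thrombopoietin and growth hormone receptors. Jak2 (chromosome 19, 29228677 to 29290505, plus strand) was at 58.8, 21.3, 0 and 32.3 CPM in LEPR+ and at 50.2, 10.1, 0 and 35.1 CPM in LEPR- cells of young mice 1 to 4. Mouse 3 had no count in either library, and the other young mice ranked in the same order in both fractions. In middle-aged cells it was at 0.0711, 37.3 and 54.9 CPM (lowest, median, highest; LEPR+) and at 11.8, 43.5 and 94.1 CPM (LEPR-). The middle-aged and young ranges overlapped in both fractions, and the log2 fold changes with age were 0.07 (SE 1.34) and 0.83 (SE 1.38). Per kilobase of exon, the mean level of Jak2 was 6.71 CPM per kb in middle-aged LEPR- cells against 34.9 for Jak1.

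The STAT genes lie next to each other on chromosome 11 in the order Stat5b, Stat5a, Stat3. Stat3 (100775924 to 100830450, GRCm39, minus strand) and Stat5a (100750177 to 100776065, plus strand) share 142 exonic bases at their 3′ ends. In LEPR- cells Stat3 was at 35.7, 31.7, 136 and 145 CPM in young mice 1 to 4. In middle-aged LEPR- cells it was at 82.3, 333 and 559 CPM (lowest, median, highest). Mouse 6 was again the lowest and fell within the young range, and the other 6 lay at 275 CPM or more, above all young libraries. For Stat3 the log2 fold change was 1.99 (SE 0.53, approximate 95% interval 0.88 to 3.10, unadjusted p = 0.00108, edgeR adjusted p = 0.0409).

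The call of Stat3 lay close to its threshold. It was lost without any 1 of 9 of the 11 LEPR- libraries (young mice 1, 2 and 3, middle-aged mice 5, 7, 8, 9, 10 and 11), with edgeR adjusted p-values of 0.0504 to 0.105 in those fits, while the log2 fold change stayed between 1.69 and 2.33 over all 11. It held without both libraries of mouse 6 (2.16, edgeR adjusted p = 0.00394, where 13.1% of genes were called). DESeq2 also called Stat3 (2.18, adjusted p = 0.000251), in a comparison where DESeq2 called 3513 genes and edgeR 667. The edgeR call was lost without a low-count filter (2.06, adjusted p = 0.0644) and in a fit of only the 2 groups compared (1.99, adjusted p = 0.0577). Within sexes the mean log2 difference in LEPR- cells was 1.00 in females (5 middle-aged, 2 young) and 3.47 in males (2 and 2), the young males being mice 1 and 2. With the drop-out share of the library as a covariate the log2 fold change of Stat3 was 0.79 (adjusted p = 0.838). The drop-out shares of young and middle-aged LEPR- libraries do not overlap, so age and drop-out cannot be told apart here.

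Marker lists were measured in the same LEPR- libraries, with 3.84% of all genes called as the background of each count. The summed level of the 12 HSC genes was 1120 to 2043 CPM in young and 1994 to 3183 CPM in middle-aged LEPR- libraries, and 1 of the 12 was called higher. The 10 stromal markers summed to 0 to 34.4 CPM in young and 10.4 to 52.5 CPM in middle-aged LEPR- libraries. Of them 4 were tested and 0 called, Col1a1, Col3a1, Pdgfrb, Dcn, Lum and Adipoq were at 0 in all young LEPR- libraries, and Pdgfra and Lum in all middle-aged ones. The 6 endothelial markers summed to 0 to 51.5 CPM and 30.7 to 113 CPM, with 5 tested, 1 called higher and Kdr at 0 in the young libraries. Erythroid markers summed to 37.2 to 1385 CPM in young and 46.0 to 670 CPM in middle-aged LEPR- libraries. Neutrophil markers summed to 282 to 1138 and 369 to 870 CPM, and megakaryocyte and platelet markers to 390 to 1308 and 267 to 751 CPM. No gene of these, the B-cell, the T and NK cell or the macrophage lists was called. Mouse 6 held the highest erythroid and neutrophil sums of both middle-aged groups. The part of the marker genes in the difference of Stat3 was not tested.

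In LEPR+ cells Stat3 was at 177, 124, 92.3 and 214 CPM in young mice 1 to 4, and at 96.2, 357 and 639 CPM (lowest, median, highest) in middle-aged mice. Without mouse 6 the middle-aged libraries lay at 289 to 639 CPM, above the highest young one. Its log2 fold change was 1.24 (SE 0.51, edgeR adjusted p = 0.190), and without both libraries of mouse 6 it was 1.40 (adjusted p = 0.0561). With the drop-out covariate it was 0.72 (SE 0.53, edgeR adjusted p = 0.632). The difference between the fractions in the age effect of Stat3 is the same contrast as the difference of the LEPR effect between ages. Without a block it was -0.75 (SE 0.68, edgeR adjusted p = 0.952). With the mouse as a replicate block it was -1.025 (SE 0.47, edgeR unadjusted p = 0.0499, adjusted p = 0.561). Neither fit called it, so the age effects of the fractions were not shown to differ.

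**Figure D4:**
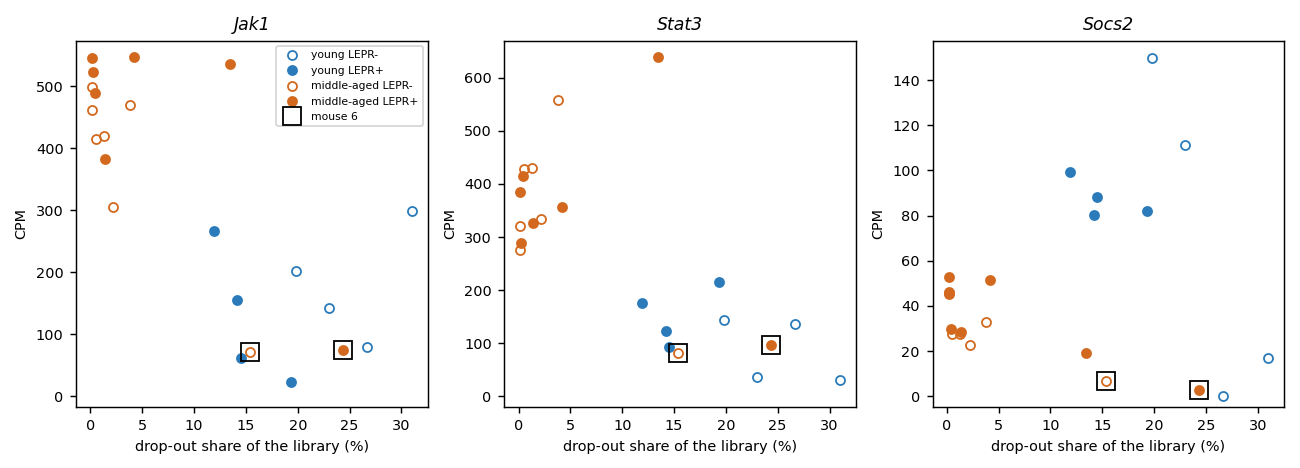
Level of Jak1, Stat3 and Socs2 in CPM (y axis, linear) against the drop-out share of the library in percent (x axis), with 1 point per library and squares around mouse 6. The libraries of mouse 6 combine drop-out shares of 15.4% and 24.4% with levels of Jak1 and Stat3 near those of young libraries. The highest levels of Socs2 are in young libraries, but the young LEPR- libraries of mice 2 and 3 are low, at 17.2 and 0 CPM.

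Stat5a and Stat5b encode the STAT5 proteins, the main effectors of thrombopoietin in HSCs, and 15.55% of the 50-base windows of the canonical Stat5a transcript also occur in Stat5b (12.05% the other way), so reads may be shared or set aside. Stat5a was at 88.2, 82.1, 17.5 and 36.5 CPM in LEPR+ and at 112, 0, 0.180 and 40.9 CPM in LEPR- cells of young mice 1 to 4. It was at 59.3, 94.4 and 169 CPM (lowest, median, highest) in middle-aged LEPR+ and at 49.1, 60.3 and 140.1 CPM in middle-aged LEPR- cells. Young mice 2 and 3 thus had Stat5a in the LEPR+ library and almost none in the LEPR- library, while no middle-aged library fell under 49.1 CPM. The log2 fold change with age was 0.89 (SE 1.05) in each fraction, with edgeR adjusted p-values of 0.760 in LEPR+ and 0.655 in LEPR- cells.

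Stat5b (100671556 to 100741589 on chromosome 11, minus strand) was at 38.4, 83.7, 20.5 and 32.7 CPM in LEPR+ and at 0.0967, 12.7, 18.2 and 49.3 CPM in LEPR- cells of young mice 1 to 4. In middle-aged mice it was at 36.1, 47.9 and 81.4 CPM (lowest, median, highest; LEPR+) and at 16.01, 39.7 and 97.8 CPM (LEPR-). All groups overlapped, and the young LEPR- library of mouse 1 was nearly empty for Stat5b while that of mouse 2 was empty for Stat5a. Stat5b had a log2 fold change with age of 0.29 (SE 0.76) in LEPR+ and 1.33 (SE 0.80, edgeR adjusted p = 0.300) in LEPR- cells.

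Of the feedback inhibitors, Socs2 was the only member whose age groups did not overlap. SOCS2 is best known for restraining growth hormone signalling and is a target of STAT5. In LEPR+ cells Socs2 (chromosome 10, 95219523 to 95253929, minus strand) was at 99.5, 80.5, 88.2 and 82.1 CPM in young mice 1 to 4 and at 2.98, 29.7 and 53.0 CPM (lowest, median, highest) in middle-aged mice. Each young LEPR+ library was above each middle-aged one, a pattern that 0.979% of all tested genes show in that direction (2.06% show the reverse). The log2 fold change was -1.41 (SE 0.94, edgeR adjusted p = 0.467), so the test over all genes did not call it.

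In LEPR- cells Socs2 was at 111, 17.2, 0 and 149.9 CPM in young mice 1 to 4 and at 6.88, 27.5 and 46.1 CPM (lowest, median, highest) in middle-aged mice. Young mice 1 and 4 were above and mice 2 and 3 below most middle-aged libraries, and the log2 fold change was -1.22 (SE 0.94, edgeR adjusted p = 0.452). In LEPR- cells no member had groups that did not overlap, beside 4.19% of genes with middle age above and 0.864% with middle age below. Of the 50-base windows of Socs2, 16.74% also occur in Gm9847, Gm8000 or Gm63385, and 7.47% of its exon bases overlap genes on the opposite strand, which makes its level uncertain. With the drop-out share as a covariate its log2 fold change was -3.15 in LEPR+ (adjusted p = 0.152) and -4.43 in LEPR- cells (adjusted p = 0.127), neither of them called.

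Socs3, which binds the leptin receptor and JAK2 and is the textbook feedback inhibitor of leptin, varied widely between the libraries of each group. Socs3 (chromosome 11, 117856905 to 117860898, minus strand) was at 3.81, 0, 29.3 and 0.0914 CPM in LEPR+ and at 52.6, 0, 23.7 and 0 CPM in LEPR- cells of young mice 1 to 4. In middle-aged mice it was at 0, 12.8 and 62.7 CPM (lowest, median, highest; LEPR+) and at 0.143, 3.599 and 63.1 CPM (LEPR-). Mouse 2 had no count of Socs3 in either fraction, mouse 7 had none in LEPR+ and 0.143 CPM in LEPR- cells, and mouse 9 was at 62.7 and 51.6 CPM. The log2 fold change with age was 1.505 (SE 2.01) in LEPR+ and 0.12 (SE 1.89) in LEPR- cells, with edgeR adjusted p-values of 0.799 and 0.982.

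Cish, a STAT5 target whose protein occupies STAT5 docking sites, had overlapping ranges in all groups. Cish (chromosome 9, 107173225 to 107179983, plus strand) was at 17.8, 39.7, 33.9 and 1.64 CPM in LEPR+ and at 45.2, 26.8, 1.12 and 23.1 CPM in LEPR- cells of young mice 1 to 4. In middle-aged mice it was at 3.34, 16.5 and 53.4 CPM (lowest, median, highest; LEPR+) and at 1.30, 15.7 and 43.2 CPM (LEPR-). The groups overlapped throughout, and mouse 6 held the lowest value in both middle-aged groups. With age its log2 fold change was -0.16 (SE 0.92) in LEPR+ and -0.34 (SE 0.92) in LEPR- cells. Cish and Socs3, in whose promoter windows the STAT motif was found, were called in no comparison. Socs2 was not searched for the motif.

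PTP1B, which takes phosphate off JAK2, is a brake on leptin signalling in the brain. Its gene Ptpn1 (chromosome 2, 167773944 to 167821309, plus strand) was at 45.0, 48.8, 64.2 and 111 CPM in LEPR+ and at 79.1, 105, 5.84 and 119 CPM in LEPR- cells of young mice 1 to 4. In middle-aged mice it was at 24.9, 62.9 and 77.8 CPM (lowest, median, highest; LEPR+) and at 42.2, 66.6 and 94.2 CPM (LEPR-). The ranges overlapped, and the log2 fold changes with age were -0.28 (SE 0.50, approximate 95% interval -1.33 to 0.76) and -0.20 (SE 0.50, -1.24 to 0.85). These are the narrowest intervals of the 10 members in both age comparisons.

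Ptpn11 (chromosome 5, 121268596 to 121329496, minus strand) was at 19.8, 0, 45.6 and 68.0 CPM in LEPR+ and at 29.7, 21.9, 40.2 and 48.2 CPM in LEPR- cells of young mice 1 to 4. With the middle-aged values given above, all 7 middle-aged LEPR+ libraries lay at 51.7 CPM or more, as did 1 of the 4 young ones. The log2 fold change with age was 1.18 (SE 0.85, edgeR adjusted p = 0.518) in LEPR+ and 0.60 (SE 0.82, adjusted p = 0.711) in LEPR- cells. SHP2 is unusual among the phosphatases of the set in passing signals on as well as ending them.

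Levels can be compared between genes only per length. Divided by the length of their merged exons, Jak1 and Stat3 were the first and second of the 10 in middle-aged LEPR- cells, at 34.9 ± 13.7 and 34.3 ± 14.8 CPM per kb (SD, n = 7). They differed by less than their spread, and Stat5a followed at 8.62 ± 3.77. In young LEPR- cells Jak1 (16.7 ± 8.65, SD, n = 4) and Stat3 (8.63 ± 6.12) were again first and second, also within their spread. The order, the first ranks included, depended on the length used. With the canonical transcript Stat3 had rank 1 and Jak1 rank 2 in middle-aged LEPR- cells, and Socs2 had rank 2 in young LEPR- and rank 1 in young LEPR+ cells. Socs2 had rank 10 in middle-aged LEPR- cells with merged exons (1.96 CPM per kb) and rank 5 with the canonical transcript (11.8 CPM per kb), a choice added after the data had been seen. Stat5b had a mean of 7.31, Jak2 of 6.71, Ptpn11 of 6.76 and Ptpn1 of 5.38 CPM per kb there, neighbours that differed by less than their spread.

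The members did not move as a block across the 22 libraries. As a description, without a test, Pearson's r of log2(CPM + 0.5) was highest for Socs2 with Ptpn1 (0.71 over all libraries, 0.75 within groups), followed by Stat3 with Stat5b (0.67 and 0.47). Jak1 with Stat3 had 0.58 and 0.44. The libraries share mice, depth and drop-out, and Jak1 and Stat3 themselves had r of -0.68 and -0.80 with the drop-out share (-0.69 and -0.55 within groups). Among 9027 genes whose mean reached 10 CPM, the patterns most like Jak1 were Kdm5a (r = 0.95), Zfr (0.94) and Nsd1 (0.94). Those most like Stat3 were Muc13 (0.91), Rad50 (0.90) and Zfp62 (0.90). For Jak2 the nearest was Pdgfd (0.91), for Stat5a Rasgef1b (0.95), for Stat5b Sap30bp (0.89), for Socs2 Nlgn2 (0.86), for Socs3 Pus1 (0.75), for Cish Tjp3 (0.82), for Ptpn1 Timp3 (0.89) and for Ptpn11 Slc14a1 (0.89). For Jak1, Stat3 and Stat5a the partners named had r between -0.60 and -0.89 with the drop-out share.

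Around the members, 6 lists of other pathway genes gave 6 calls in 5 genes, all of them higher, by the same edgeR test. In LEPR- cells with age these were 3 of 23 tested cytokine receptors (Ghr, Il6st, Osmr), 1 of 20 leptin adaptors (Gab2) and 1 of 21 STAT targets (Ccnd1), beside 3.84% of all genes, a share that the last 2 counts are near. None of 15 other brakes, 6 other JAK and STAT genes and 3 genes of the receptor list (Lepr, Leprot and Leprotl1) was called there (3, 1 and 1 had an unadjusted p under 0.05, beside 4865 of 17366 genes). In young mice Ghr was also higher in LEPR+ than in LEPR- cells (1 of 23, beside 0.599% of all genes). No gene of these lists was called lower in any comparison, and none was called in the other 4 comparisons. DESeq2 made 51 calls in these lists over the 6 comparisons, where it called 3513 of all genes for age in LEPR- cells alone, and the edgeR fit without a low-count filter made 1.

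The growth hormone receptor Ghr signals through JAK2 and STAT5, as the leptin receptor does. It was at 0, 0, 0.0361 and 0.906 CPM in LEPR- and at 63.5, 0, 40.4 and 21.7 CPM in LEPR+ cells of young mice 1 to 4, so mice 1, 3 and 4 had it almost only in the LEPR+ library. In middle-aged cells it was at 19.1 to 84.4 CPM (LEPR-) and 49.9 to 141 CPM (LEPR+). Ghr had a log2 fold change of 7.00 (SE 1.58, edgeR adjusted p = 0.0431) for LEPR+ against LEPR- in young mice and 7.63 (SE 1.60, adjusted p = 0.0137) for middle-aged against young LEPR- cells. Both rest on the same 4 young LEPR- libraries. With the mouse as a replicate block the first was 8.70 and no longer called (edgeR adjusted p = 0.0794), and leaving out 1 library of young mouse 1 or 3 (either fraction) or the LEPR- library of mouse 2 also ended the call (0.0548 to 0.0933). Fits without a low-count filter (adjusted p = 0.0607), with sex as a covariate (0.0555) and of only the groups compared (1) lost it as well, so that Ghr was called in young mice in 8 of 18 alternatives. The age difference of Ghr was kept in 18 of 19 alternatives and lost with the drop-out covariate (6.49, adjusted p = 0.0680). For LEPR in young mice, 1 of 5 tested endothelial and 0 of 4 tested stromal markers were called higher (edgeR, beside 0.599% of all genes). Endothelial markers summed to 34.1 to 169 CPM in young LEPR+ and 0 to 51.5 CPM in young LEPR- libraries. Stromal markers summed to 0.115 to 271 and 0 to 34.4 CPM. No gene of the other marker lists was called there. The part of these markers in the difference of Ghr was not tested.

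Il6st encodes gp130, the shared chain of the interleukin-6 family that works through JAK1 and STAT3. It was at 3.35, 0.147, 0 and 0.188 CPM in LEPR- cells of young mice 1 to 4 and at 0.582, 39.8 and 81.8 CPM (lowest, median, highest) in middle-aged LEPR- cells, where mouse 6 was the lowest. Il6st had a log2 fold change of 5.72 (SE 1.55, edgeR adjusted p = 0.0441). Osmr, the oncostatin M receptor that pairs with gp130, had 2 counts in the young LEPR- libraries and 3517 in the middle-aged ones. The ratio of the pooled CPM of Osmr was 813 (95% counting interval 225 to 6714, which leaves out the spread between libraries). The edgeR test between the groups gave an adjusted p of 0.0333, but middle-aged mice 5 and 6 had 1 count each. The call of Il6st was lost without any 1 of 9 LEPR- libraries (young mice 2, 3 and 4, middle-aged mice 5, 7, 8, 9, 10 and 11; adjusted p = 0.0518 to 0.0984). That of Osmr was lost without any 1 of 6 (the 4 young mice, middle-aged mice 7 and 8; 0.0511 to 0.0818).

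Gab2, a docking protein that recruits SHP2, had no count in the 4 young LEPR- libraries and 2386 in the middle-aged ones. Against a floor of 3 counts over the group the pooled ratio was 368, which covers counting error only and leaves out the spread between libraries. With drop-out of 19.8% to 31.03% in young LEPR- libraries, this ratio is not a lower bound of the difference. The edgeR test between the groups gave an adjusted p of 0.0418. In young LEPR+ cells Gab2 had 430 counts, 429 of them from mouse 3. Ccnd1, the cyclin D1 gene that STAT3 and STAT5 can induce, was at 48.5, 16.6, 8.00 and 66.0 CPM in LEPR- cells of young mice 1 to 4. In middle-aged LEPR- cells it was at 77.9 to 160.0 CPM, above all young ones, with a log2 fold change of 1.73 (SE 0.46, edgeR adjusted p = 0.0416). The call of Gab2 was lost without any 1 of 9 LEPR- libraries (the 4 young mice, middle-aged mice 7 to 11; adjusted p = 0.0539 to 0.0916) and that of Ccnd1 without any 1 of 9 (young mice 1, 2 and 3, middle-aged mice 5, 7, 8, 9, 10 and 11; 0.0523 to 0.110). The drop-out shares given above move with these 5 genes, and with the share as a covariate the 6 lists held 1 call in place of 6, that of Ghr in young mice. The log2 fold changes with age in LEPR- cells were then 6.49 for Ghr and 1.41 for Ccnd1 (adjusted p = 0.0680 and 0.290), with the same sign and near their values without it, while that of Il6st was 1.84 (adjusted p = 0.839) in place of 5.72. Osmr and Gab2 also kept their sign (adjusted p = 0.0811 and 0.331).

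**Figure D5:**
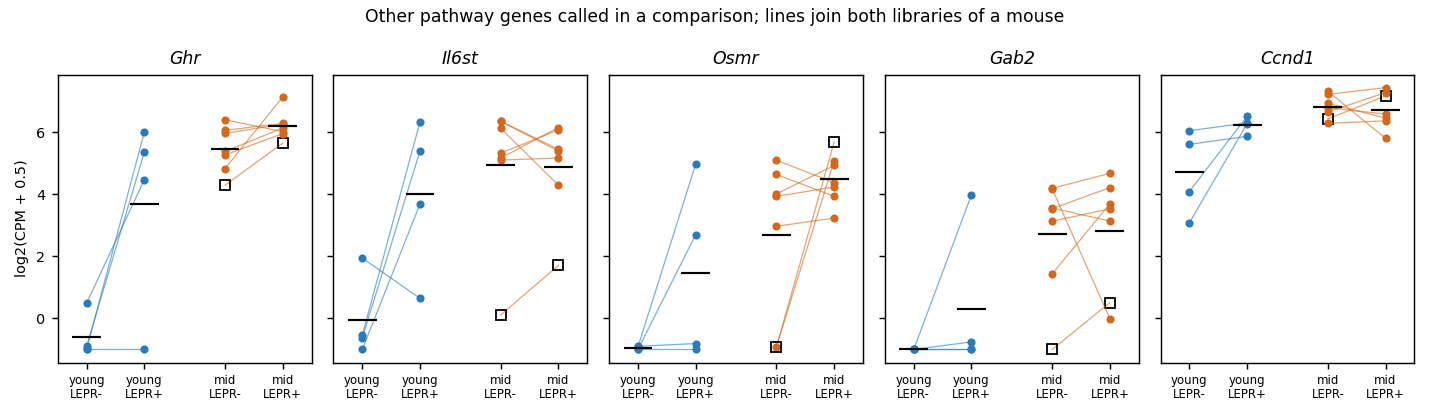
Level of the 5 called pathway genes outside the set in every library, as log2(CPM + 0.5); lines join both libraries of a mouse, bars are group means and open squares mark mouse 6. The young LEPR- libraries lie at or near 0 CPM for Ghr, Osmr and Gab2, while young LEPR+ libraries of the same mice range from 0 CPM to the middle-aged level.

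In the remaining lists the genes with the smallest p-values stayed short of the threshold. Ptpn6 encodes SHP1, which dephosphorylates JAK2 downstream of cytokine receptors. Its log2 fold change with age was 0.78 (SE 0.27, edgeR adjusted p = 0.158) in LEPR+ and 0.80 (SE 0.27, adjusted p = 0.0855) in LEPR- cells. Cbl, a ubiquitin ligase that targets cytokine receptors, was at 0.0361 to 14.1 CPM in young and 22.6 to 84.2 CPM in middle-aged LEPR- cells, with 3.01 (SE 0.99, edgeR adjusted p = 0.0765). Tyk2, a kinase of the JAK family, had 4.22 (SE 1.74, edgeR adjusted p = 0.192) in LEPR+ cells. Ptprc, the phosphatase CD45, was at 0.0711 CPM in the LEPR+ library of mouse 6 and at 318 to 610.3 CPM in the other middle-aged LEPR+ libraries. Without both libraries of mouse 6 Ptprc was called higher with age in LEPR+ (2.90, edgeR adjusted p = 0.000368) and LEPR- cells (1.99, adjusted p = 0.00130).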

How the data were processed

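Each file deposited by the authors lists unnormalised read counts by gene for 1 library. Per the submitters' processing notes, FastQC, cutadapt, STAR, HTSeq and DESeq2 were used with GRCm39; their versions, which annotation was used and whether counting used strand are not given in the sources used here. Per the labels' protocols, libraries were made with a low-input kit from poly(A) RNA, and no molecular identifiers are named, so floors and counting intervals cover counting error only. Summary lines for reads outside genes (29.1% to 40.3% of a file) were left out. Of the identifiers, 54749 matched GENCODE vM39, and the others held 0.0454% of counts.

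Counts were tested with edgeR 4.0.16 (R 4.3.3, limma 3.58.1): TMM scaling, filterByExpr (minimum count 10, total 15), 1 quasi-likelihood fit over 22 libraries (group means, no covariate), and Benjamini-Hochberg adjustment over all 17366 genes in each comparison, called at 0.05. Intervals use the standard error and 18 residual degrees of freedom. The procedure was tested on simulated data. Of the mice, 2 young and 2 middle-aged were male. Both libraries of a mouse come from the same animal; their deviations from the group means correlated with r of 0.0639 to 0.736 over 9028 genes. DESeq2 1.42.0, other scalings, filters and covariates were alternatives. Members and lists were chosen with earlier results of these data known. Pathway genes outside the set are named where called, and otherwise by the smallest p-values in each list.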

Additional observations from a re-analysis of the deposited data

Results flagged for a closer look

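Of 40 combinations of a member and a group, 8 held a library whose gap to its nearest neighbour was large for the group's range by Dixon's test at 95%, where chance gives about 1 in 20. In 6 of the 8 the library was from mouse 6 and was the lowest of 7. Jak1 of mouse 6 was at 72.05 CPM in LEPR- cells (the others at 305 to 499.7) and at 74.54 CPM in LEPR+ cells (the others at 383 to 547). Stat3 of mouse 6 was at 82.34 CPM in LEPR- cells (the others at 275 to 559) and at 96.21 CPM in LEPR+ cells (the others at 289 to 639). Socs2 of mouse 6 was at 6.882 CPM in LEPR- cells (the others at 22.8 to 46.1) and at 2.984 CPM in LEPR+ cells (the others at 19.2 to 53.0). The counts behind these 6 values lay between 42 and 3111. The drop-out shares of these libraries, 15.4% and 24.4%, were the highest of their groups, as were their erythroid marker sums (670 and 1122 CPM). The part of either in the low levels was not tested.

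The other 2 were single libraries of other mice. Stat5a of mouse 5 was at 140.1 CPM in LEPR- cells, the highest of 7, with the others at 49.1 to 72.0 CPM. Ptpn1 of young mouse 3 was at 5.841 CPM in LEPR- cells, the lowest of 4, with the others at 79.1 to 119 CPM.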

How the results depend on the processing

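With mouse 6 left out, or by DESeq2, the members called with age in LEPR+ cells were 1 (Jak1) in place of 0. Over all genes those fits called 671 and 1881 in place of 30. The members called with age in LEPR- cells were 0 in place of 1 (Stat3) without a low-count filter, with only the groups compared in the fit and with the drop-out covariate, and ranged from 0 to 1 when each library was left out. In the 4 LEPR comparisons the count of members was 0 under every alternative run, the replicate block included. The calls in the other pathway lists were 51 by DESeq2, 1 without a filter, 1 with the drop-out covariate, 14 without mouse 6 and 1 to 9 when each library was left out, in place of 6. The replicate block ended 1 call, that of Ghr in young mice (8.70, adjusted p = 0.0794), and its smallest adjusted p for a member was 0.313. Alternatives for the called pathway genes and the canonical transcript length were chosen after seeing the data. A fit of only the groups compared was not run for both ages or the difference, which use all 4 groups.

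Of 1420 values of members under alternatives, 1281 kept their direction and side of the threshold, 12 lost and 2 gained a call, and none that was called in either fit changed sign. In 125, sign changed while neither value passed the threshold (smallest unadjusted p 0.191). Over all genes, DESeq2 called 1952 in young mice for LEPR (104 by edgeR; 0 with only those groups, 61 unfiltered, 233 with the drop-out covariate, 221 without mouse 6), 1881 for age in LEPR+ cells (30 by edgeR; 13 unfiltered, 14 with only those groups, 83 with drop-out, 671 without mouse 6) and 3513 for age in LEPR- cells (667 by edgeR; 239 unfiltered, 195 with drop-out, 2260 without mouse 6). For both ages DESeq2 called 1486 (48 by edgeR; 29 unfiltered, 99 without mouse 6, 12 with the block) and for the difference of LEPR effects 1421 (41 by edgeR; 91 without mouse 6, 7 with the block); for LEPR in middle-aged mice it called 1, as did the block. With the block and the drop-out share together the calls for LEPR in young mice, both ages and the difference were 0, 1 and 0. Over the alternatives the adjusted p of Stat3 with age in LEPR- cells ran from 0.000251 to 0.838. The cause was not tested.

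With 4 young mice and a median biological coefficient of variation of 1.26, the wide intervals of Jak2, Socs3 and Stat5a leave room for large differences. Levels under 0.279 CPM cannot be told from 0 in the library with the highest such limit.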
